A study of Mus musculus with 49 samples.

Results

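Neutrophils carry their antimicrobial proteins in granules, and the genes described here encode 8 of those proteins. Mpo, Elane, Prtn3 and Ctsg encode proteins of the primary (azurophil) granules, and Camp, Ltf, Ngp and Lcn2 encode proteins of the secondary (specific) granules. They were chosen by symbol and with earlier results of these data known. Each had 1 or more probe sets of the array annotated to it alone, and they are 8 of the 8251 genes measured. Where a gene had several probe sets, the probe set with the highest mean over all 49 arrays stood for it, and the second probe sets of Mpo and Lcn2 are given beside it.

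Granule proteins are made in the bone marrow while neutrophils mature, and the cells that reach blood and tissue mostly carry the finished proteins. The mRNAs of primary granule proteins are made first, in promyelocytes, and those of secondary granule proteins later, in myelocytes and metamyelocytes. Both sets of mRNA fall as the cells become mature, so they are commonly read as marks of neutrophil precursors, while Lcn2 is also made by epithelial and stromal cells in inflammation.

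The arrays followed arthritis in male B6 mice of 6 weeks, induced by injected serum of K/BxN mice, which carries autoantibodies that inflame the joints. Whole ankle gave 4 arrays at day 0, before serum, and again 4 at day 7, with 2 arrays at day 1 and 3 each at days 3, 12 and 18. Synovial fluid cells gave 4 arrays at day 7 and 3 each at days 3, 12 and 18. Blood leukocytes, freed of red cells by lysis, gave 2 arrays at day 18 and 3 each at days 0, 1, 3, 7 and 12. No label gives a mutant or a transgene in any sample, and every day is counted from the first serum injection. The label of ankle day 0 replicate 2 has a description that opens with a day 2 name, while its other labels place it at day 0. Ankle RNA was amplified in 2 rounds, most fluid and blood RNA otherwise, so tissue and preparation cannot be told apart. By the labels, a wash of the opened joint gave 2 fluid samples, namely replicate 1 of days 3 and 7, and 2 more had a second round of amplification, namely replicate 4 of day 7 and replicate 3 of day 18. Among the blood samples, replicate 3 of day 3 is labelled with 2 rounds. Whole ankle is a mixed tissue, and fewer cells of a type and less RNA per cell cannot be told apart in it. Only blood samples are called biological replicates, so elsewhere the p-values measure a spread between samples that may be technical.

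Array medians lay between 57.7 and 64.1 in intensity, and all values below are log2 intensities. The background level was taken from 34 probe sets for sequences foreign to the mouse or in reverse sense: their median was 4.40 and their 95th percentile 6.85. In the ankle, liver transcript Alb lay above that percentile on 3 arrays (replicate 1 of days 0, 7 and 12), and at day 18 it lay between 4.37 and 4.78. As a check of the tissue labels, the neutrophil gene S100a8 averaged 12.07 to 12.41 in the fluid groups and 11.28 to 12.22 in the blood groups, and 6.95 in ankle at day 0.

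Camp, Ngp and Ltf lie on chromosome 9 in the RefSeq annotation of GRCm38.p6. Their promoters, from 250 bases before to 50 bases after the gene start, are shown because these 3 genes rose together in ankle, with that of Lcn2, the secondary granule gene that was not called, and that of Mpo, a primary granule gene. All 8 genes had an entry in the RefSeq promoter table. The windows are Camp at chr9:109849407-109849706 on the minus strand, Ngp at chr9:110419558-110419857 on the plus strand, Ltf at chr9:111019042-111019341 on the plus strand, Lcn2 at chr2:32387690-32387989 on the minus strand and Mpo at chr11:87793534-87793833 on the plus strand. Each is written 5′ to 3′ along its gene, and capitals mark matches to a C/EBP motif (TTNNGNAA or TTNCNNAA), an ETS motif (AGGAAG or CTTCCT) or a RUNX motif (TGTGGT or ACCACA).
Camp: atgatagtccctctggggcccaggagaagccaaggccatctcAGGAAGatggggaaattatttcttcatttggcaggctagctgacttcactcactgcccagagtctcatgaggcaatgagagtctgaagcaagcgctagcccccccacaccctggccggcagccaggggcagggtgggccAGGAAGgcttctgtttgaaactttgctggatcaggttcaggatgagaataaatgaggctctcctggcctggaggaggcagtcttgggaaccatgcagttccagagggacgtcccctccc
Ngp: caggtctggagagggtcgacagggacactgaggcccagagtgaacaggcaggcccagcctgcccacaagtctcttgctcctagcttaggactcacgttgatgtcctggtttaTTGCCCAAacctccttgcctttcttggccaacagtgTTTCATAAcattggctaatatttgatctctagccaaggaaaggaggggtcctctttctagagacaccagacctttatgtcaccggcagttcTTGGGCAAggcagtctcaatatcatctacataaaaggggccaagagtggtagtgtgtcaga
Ltf: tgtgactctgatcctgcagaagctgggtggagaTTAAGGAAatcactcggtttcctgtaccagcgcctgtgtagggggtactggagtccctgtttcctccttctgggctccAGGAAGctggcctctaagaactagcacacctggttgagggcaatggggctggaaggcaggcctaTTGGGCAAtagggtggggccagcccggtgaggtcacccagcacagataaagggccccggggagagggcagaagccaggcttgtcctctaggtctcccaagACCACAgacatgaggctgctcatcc
Lcn2: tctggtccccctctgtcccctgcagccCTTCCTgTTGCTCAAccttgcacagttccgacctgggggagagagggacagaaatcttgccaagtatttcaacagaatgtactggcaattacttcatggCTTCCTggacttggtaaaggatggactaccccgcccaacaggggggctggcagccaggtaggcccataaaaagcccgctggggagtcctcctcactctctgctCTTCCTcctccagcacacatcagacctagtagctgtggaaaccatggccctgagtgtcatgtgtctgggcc
Mpo: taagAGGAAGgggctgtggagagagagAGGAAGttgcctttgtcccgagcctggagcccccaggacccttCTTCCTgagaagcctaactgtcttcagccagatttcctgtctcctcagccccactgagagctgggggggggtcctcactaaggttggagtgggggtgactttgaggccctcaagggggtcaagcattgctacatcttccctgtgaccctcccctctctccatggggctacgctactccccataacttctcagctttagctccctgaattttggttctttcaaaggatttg

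C/EBP, ETS and RUNX proteins are families of transcription factors known for their part in myeloid development. On both strands, the C/EBP motif was found in 3 of the 8 promoters (Ltf, Ngp and Lcn2) and in 40.7% of all 32851 promoters of the table. The ETS motif was found in 7 of 8, all but Ngp, and in 35.4% of all promoters. The RUNX motif was found in 2 of 8 (Ltf and Ctsg) and in 16.8% of all promoters. Such a match is a description of the letters in the window and not a binding site.

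The primary granule genes were close to or under background throughout. Mpo encodes myeloperoxidase, which makes hypochlorous acid, and its main probe set exceeded 6.85 on 0 of 49 arrays, with values from 4.48 to 5.66. Elane encodes neutrophil elastase, a serine protease, and lay between 5.67 and 6.69, also above the percentile on 0 arrays. Prtn3, which encodes proteinase 3, exceeded it on 2 arrays, both of blood, with a range from 6.09 to 6.90. Ctsg, which encodes cathepsin G, ran from 2.66 to 3.60, with 0 arrays above the percentile. Levels of different probe sets cannot be set against each other, and a value under the percentile does not show that the mRNA is absent.

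**Figure D1:**
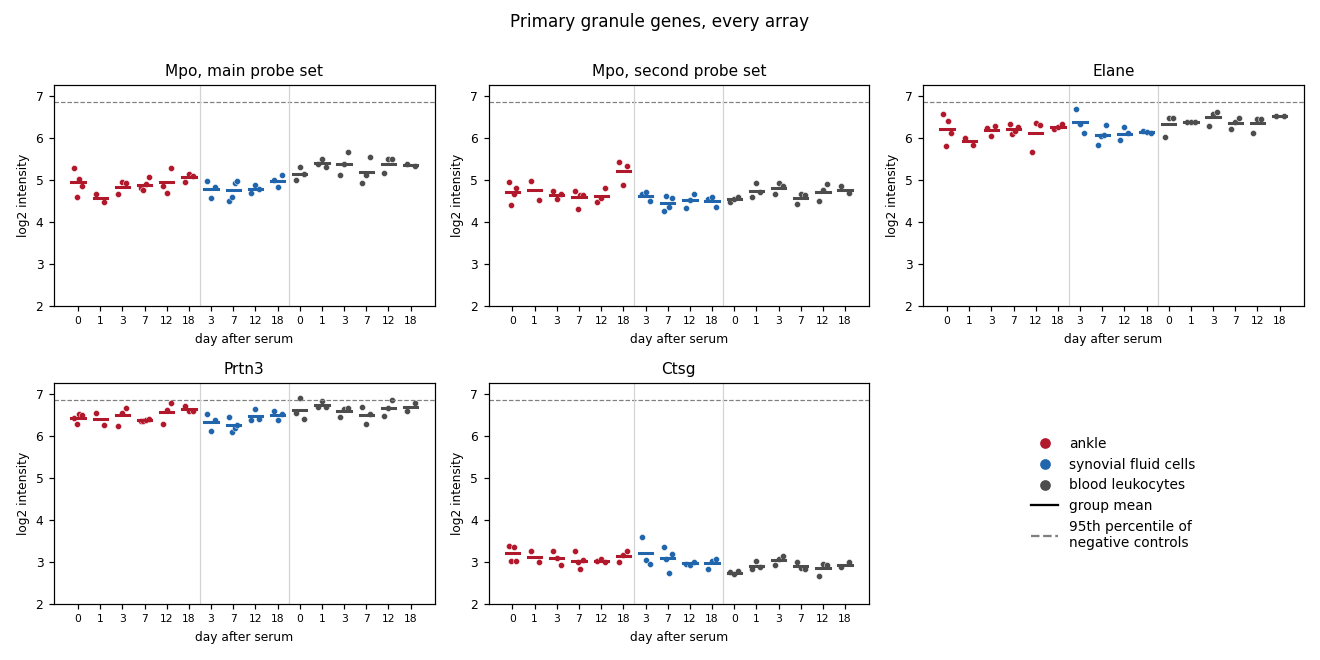
Log2 intensity of Mpo (both probe sets), Elane, Prtn3 and Ctsg on every array, by tissue and by day after serum (points, arrays; short lines, group means; dashed line, the 95th percentile of the negative controls, 6.85). Apart from 2 blood arrays of Prtn3, every point lies under the dashed line.

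Among the secondary granule genes, Camp was above background on all 49 arrays. Camp encodes the cathelicidin antimicrobial peptide, Ltf lactoferrin, which binds iron, Ngp a neutrophilic granule protein related to the cathelicidins, and Lcn2 lipocalin 2, which binds bacterial siderophores. Ngp exceeded 6.85 on 20 arrays, 14 of blood, 5 of ankle and 1 of fluid. Ltf exceeded it on 3 arrays, 2 of ankle and 1 of blood. The main probe set of Lcn2 exceeded it on 2 arrays and its second probe set on 7.

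**Figure D2:**
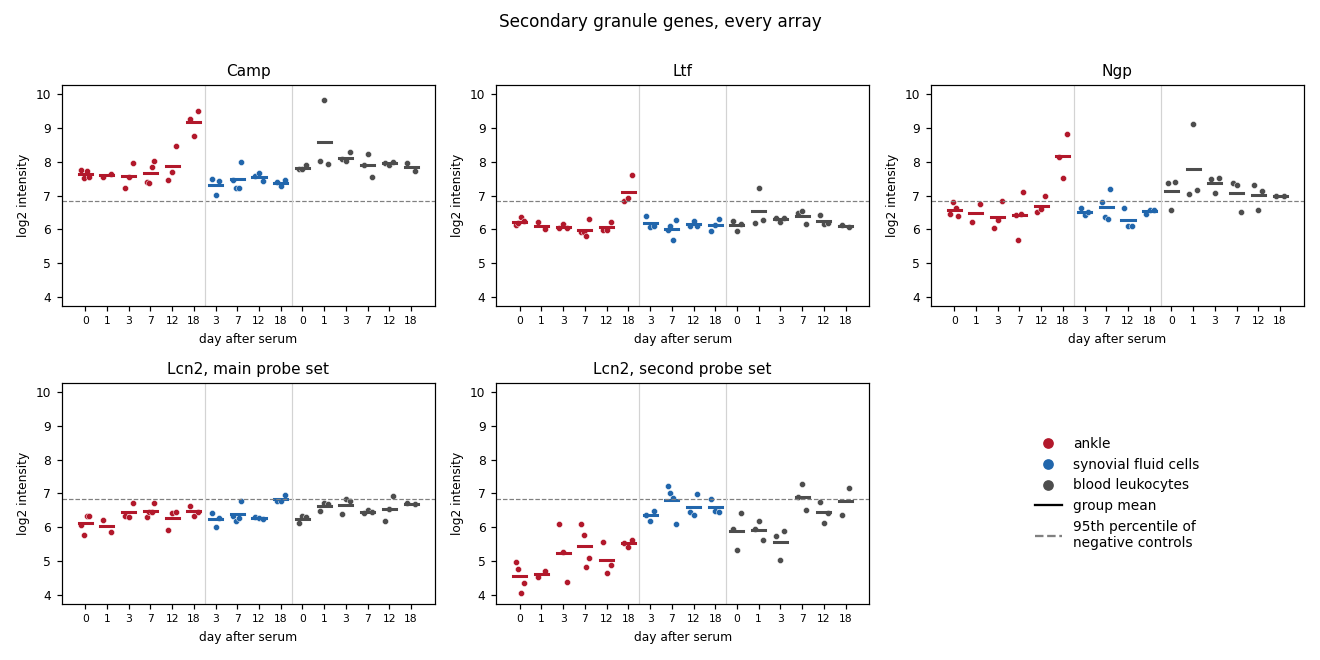
Log2 intensity of Camp, Ltf, Ngp and Lcn2 (both probe sets) on every array, by tissue and by day after serum (points, arrays; short lines, group means; dashed line, 6.85). The 3 ankle arrays of day 18 are the highest ankle arrays for Camp, Ltf and Ngp, a pattern not counted over all genes. For these genes, 1 blood array of day 1 stands above the other blood arrays.

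In ankle, 3 of the 4 secondary granule genes were called at day 18 against day 0. The direct comparisons of the ankle change with that of blood or fluid, given further below, did not pass the test. Between day 0 and day 18, Camp, Ngp and Ltf rose in ankle, while Lcn2 and the 4 primary granule genes did not pass the test. For Camp the ankle arrays read 7.75, 7.53, 7.72 and 7.56 at day 0 and 9.25, 8.77 and 9.48 at day 18. All 3 late arrays lay above all ankle arrays of the other days, of which the highest was 8.46 at day 12. Against day 0 alone this was so for 6.16% of all genes, and the share against all other days was not counted. The rise of Camp from day 0 was 1.53 ± 0.24 (SE, 3 against 4 arrays), a fold of 2.88, with an adjusted p of 0.00141 in limma.

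For Ngp the arrays read 6.46, 6.81, 6.65 and 6.41 at day 0 and 8.14, 7.53 and 8.81 at day 18, again with no overlap, as for 6.16% of all genes in the upward direction. The difference was 1.58 ± 0.30 (limma, adjusted p = 0.00793). For Ltf they read 6.12, 6.18, 6.37 and 6.26 at day 0 and 6.83, 6.92 and 7.60 at day 18. Ltf differed by 0.88 ± 0.17 (limma, adjusted p = 0.00692). Its 3 late arrays lay above every earlier ankle array, and as for Camp the share of all genes with this pattern was not counted. Since the day 0 means of Ngp and Ltf, 6.58 and 6.23, lay under the 95th percentile of the controls, these differences are at best lower bounds and no fold is given.

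These 3 of 8 genes were called against 2.01% of all genes in that comparison, and 1.13% were called higher. As the members were chosen with earlier results of these data known, this excess is not independent support. The median difference was 1.21 over the 4 secondary genes, 0.08 over the 4 primary genes and -0.002 over all 8251 genes. Without replicate 3 of day 18, which had the highest value for all 3 genes, Camp was still called (range over alternatives of its adjusted p 4e-05 to 0.0183), while Ltf had a difference of 0.64 with an adjusted p of 0.0596 and Ngp 1.25 with 0.0906 (limma). The calls of all genes fell from 166 to 56 without that array. The 3′ actin control probe set exceeded the 5′ one by 2.73 to 3.50 (log2) at day 0 and by 3.31 to 3.51 at day 18, and Camp, Ltf and Ngp were all still called with it as a covariate.

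The ankle means of Camp before day 18 lay close together, and the step from day 12 to day 18 itself did not pass the test. These means, from day 0 through days 1, 3, 7 and 12, were 7.64, 7.60, 7.58, 7.66 and 7.87, before 9.17 on the last day, and 1 array of day 12 read 8.46. Those of Ngp ran from 6.38 to 6.70 before day 18 and reached 8.16, and those of Ltf ran from 5.98 to 6.23 and reached 7.11. Neither primary nor secondary genes were called at days 1, 3, 7 or 12 against day 0 (limma, 0 of 8 each, 0 of 8 at an unadjusted p under 0.05 at days 1, 3 and 12 and 1 of 8, Lcn2, at day 7), where 0%, 0.230%, 6.73% and 3.24% of all genes were.

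Set against day 7, when 555 genes differed from day 0, the late rise was rare among all genes. Only 5 genes, 0.0606% of those tested, were called between day 7 and day 18 in ankle, and 3 of them were Ltf, Camp and Ngp. Since the members were chosen with earlier results of these data known, their share among the called genes is a description only. Camp was higher by 1.50 ± 0.24 (adjusted p = 0.019), a fold of 2.83, Ltf by 1.13 ± 0.17 (adjusted p = 0.0133) and Ngp by 1.74 ± 0.30 (adjusted p = 0.0433; limma). Their day 18 arrays did not overlap those of day 7, as for 4.19% of all genes upwards. The day 7 means of Ngp and Ltf, 6.42 and 5.98, lay under 6.85, so their differences are at best lower bounds here too. The other two were Cilp2 and Sfrp4, named after their values were seen, and both had been lower at day 7 (10.34 and 7.2) than at day 0 (12.84 and 8.39).

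The calls of day 18 against day 7 depended on single arrays. This held for all genes, of which 0 to 7 were called in the fits without 1 array, against 5 in the main fit. Leaving out day 7 replicate 2 or replicate 3 left 0 members called, and leaving out day 18 replicate 1 or replicate 3 left Ltf, as did quantile normalization of the ankle arrays anew. Ngp alone was also lost without day 7 replicate 1 (adjusted p = 0.0632) and without the 3 arrays with Alb (adjusted p = 0.0784; limma), and in all 5 of the 7 fits without 1 array did not call it. Over the fits that left out 1 array, the difference of Camp ran from 1.35 to 1.70 (adjusted p from 0.0156 to 0.203), that of Ltf from 0.89 to 1.28 (0.00993 to 0.0559) and that of Ngp from 1.41 to 2.05 (0.0156 to 0.278). Against day 12, Camp was higher by 1.3 ± 0.26 (adjusted p = 0.34), Ltf by 1.05 ± 0.18 (adjusted p = 0.126) and Ngp by 1.46 ± 0.32 (adjusted p = 0.763), each with no overlap of arrays, as for 4.24% of all genes upwards, and 0 of 8 members and 0% of all genes were called by limma, with 93 genes at an unadjusted p under 0.05.

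The primary granule genes did not take part in a called change. From day 0 to day 18 in ankle, Mpo differed by 0.12 (95% interval -0.21 to 0.46), Elane by 0.04 (-0.33 to 0.41), Prtn3 by 0.19 (-0.09 to 0.48) and Ctsg by -0.07 (-0.32 to 0.19). The day 18 arrays of Prtn3 (6.71, 6.58 and 6.59) lay above those of day 0, the highest at 6.52, and of day 7 without overlap. This was so for 6.16% and 4.19% of all genes upwards. Prtn3 differed by 0.26 ± 0.14 from day 7 (limma, adjusted p = 0.999). These intervals leave out the sizes measured for Camp and Ngp, but all lie under background, where differences can be understated. The second probe set of Mpo, under background too, read 5.42, 4.87 and 5.34 at day 18 and 4.74, 4.31, 4.63 and 4.64 at day 7. It differed by 0.63 ± 0.16 from day 7 (adjusted p = 0.334) and by 0.51 ± 0.16 from day 0 (adjusted p = 0.147; limma).

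**Figure D3:**
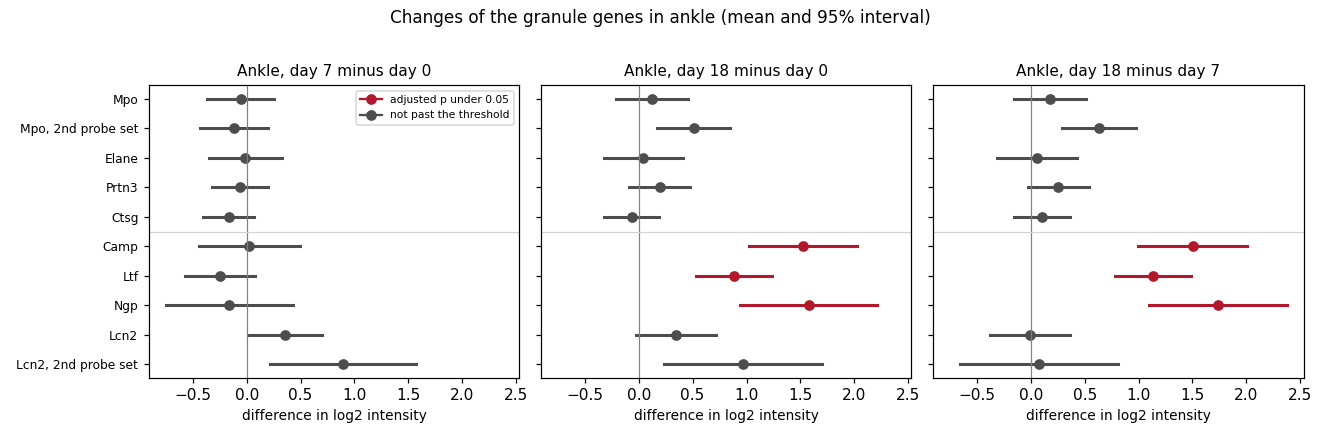
Differences in log2 intensity in ankle between day 7 and day 0, day 18 and day 0, and day 18 and day 7, for the 8 genes and the second probe sets of Mpo and Lcn2 (points, differences; bars, 95% intervals; red, adjusted p under 0.05). Camp, Ltf and Ngp are red in both panels with day 18 and near 0 at day 7.

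Lcn2 had 2 probe sets that differed. The main one was taken only for its higher mean over the 49 arrays, 6.43 against 5.88. Its values ran from 5.76 to 6.95 and those of the second from 4.07 to 7.26. Which of them measures Lcn2 better was not tested. On the main probe set the ankle arrays read 6.63, 6.35 and 6.46 at day 18 and 6.08, 5.76, 6.34 and 6.34 at day 0, a difference of 0.35 ± 0.18 (adjusted p = 0.473). On the second they read 5.53, 5.41 and 5.64 against 4.99, 4.78, 4.07 and 4.37, a difference of 0.97 ± 0.35 (adjusted p = 0.219; limma). Unlike Camp, Lcn2 on this probe set was higher by 0.90 ± 0.32 at day 7 already (adjusted p = 0.117) and differed by 0.07 between day 7 and day 18, with the difference between the genes not tested. With the mean of both probe sets, Lcn2 passed the test between day 0 and day 18 (limma, adjusted p = 0.029). All these means lay under 6.85.

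Some genes of mature neutrophils had risen in ankle by day 7, and their time course was not tested against that of Camp, Ngp and Ltf. Of 14 measured genes of mature neutrophils, 6 rose by day 7 and 6 by day 18, among them S100a8 and S100a9, subunits of calprotectin, and Clec4d, which encodes a C-type lectin. Of all genes, 6.73% were called in either direction at day 7 and 2.01% at day 18. S100a8 was 2.94 ± 0.25 above day 0 at day 7 and 3.09 ± 0.27 above it at day 18, and 0.15 ± 0.27 separated the 2 days (adjusted p = 0.999). S100a9 was higher by 3.18 and 3.43 and Clec4d by 3.49 and 3.44. Between day 7 and day 18, 0 of 14 were called, where only 0.0606% of all genes were. Ly6g, which marks neutrophils, differed by 0.37 between those days (limma, adjusted p = 0.735). The mean log2 value over the genes of this list was 5.39 to 5.51 on the arrays of day 0, 6.50 to 6.74 at day 7 and 6.59 to 6.88 at day 18.

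Of 15 other genes of secondary and tertiary granules, 4 rose from day 0 to day 18: Mmp9 (gelatinase B, by 3.02), Slpi (a protease inhibitor, by 2.59), Adam8 (a metalloprotease, by 1.35) and Chil3 (a chitinase-like protein, by 1.18), with a list median of 0.09. In that comparison 1.13% of all genes were called higher. Mmp9 and Slpi were already up by 3.77 and 2.88 at day 7. Between day 7 and day 18, 0 of the 15 were called, where only 0.0606% of all genes were. Of 7 other genes of primary granules and their processing, 0 were called at day 18 against day 0, where 2.01% of all genes were. Among 12 measured regulators, Klf5 differed by -1.37 ± 0.20 (limma, adjusted p = 0.000447), 0 rose, and Csf3r, the receptor of granulocyte colony stimulating factor, differed by 0.73 ± 0.21 (adjusted p = 0.092). Csf3r was named after its values were seen, as were Gfi1 and Myb. Gfi1 and Myb, known for their part in early neutrophil development, differed by 0.05 and 0.52, and Cebpe was not among the measured genes.

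**Figure D4:**
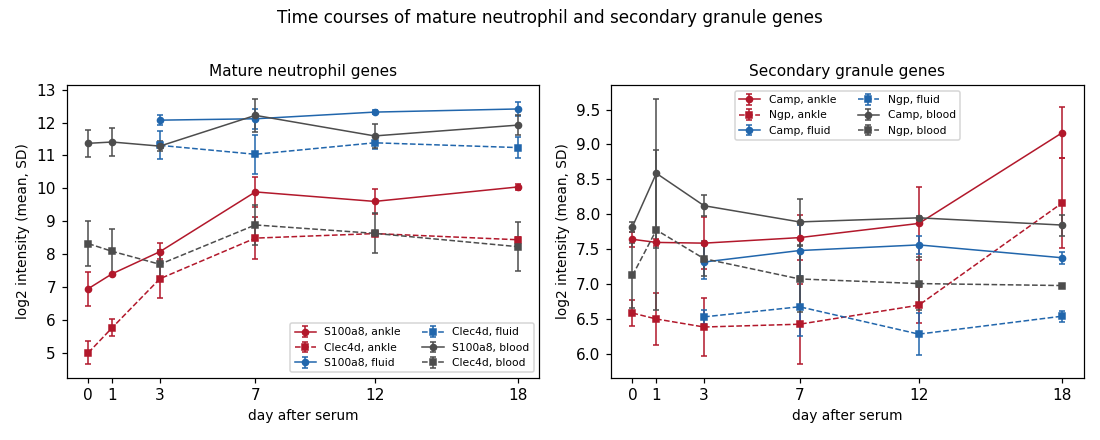
Mean log2 intensity ± SD over the days after serum of S100a8 and Clec4d (left) and of Camp and Ngp (right) in ankle, synovial fluid cells and blood leukocytes. In ankle S100a8 reached 9.89 at day 7 and 10.04 at day 18, while Camp was at 7.66 at day 7 and 9.17 at day 18.

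Lists of other marrow and blood cells were checked beside the late rise of Camp, Ngp and Ltf. From day 0 to day 18 in ankle, 0 of 10 erythroid genes, 0 of 10 marrow B cell precursor genes, 0 of 6 megakaryocyte and platelet genes, 0 of 4 eosinophil genes and 0 of 8 liver genes were called. Of all genes 2.01% were called, so a count of 0 in such short lists does not show that these cells were absent. At day 18 the ankle means exceeded 6.85 for 3 erythroid, 2 B cell precursor, 2 megakaryocyte and platelet, 0 eosinophil and 0 liver genes. The haematopoietic progenitor list had 1 of 8 (Cd93, by 0.98), the monocyte and macrophage list 1 of 11 (Msr1), the mast cell and basophil list 1 of 8 (Hdc, by 1.65), the osteoclast list 1 of 5 (Mmp9) and the proliferation list 2 of 12 (Top2a, by 1.1, and Cdk1, by 0.98). The local acute phase list had 3 higher (Saa3, Il1rn and Timp1) and 1 lower (Cp) of 7. The erythroid list averaged 6.68 to 7.05 on the day 0 arrays and 6.72 to 6.98 on the day 18 arrays, and the marrow B cell precursor list 5.84 to 6.17 and 6.07 to 6.18. Between day 7 and day 18, 0 genes of all these lists were called, where only 0.0606% of all genes were.

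Camp, Ngp and Ltf lie in the same region of chromosome 9. The RefSeq table has 46 genes between Camp and Ltf, of which 11 were measured and are no members. Of these 11, 0 were called in ankle between day 0 and day 18, where 2.01% of all genes were. Their differences ran from -0.83 to 0.28, with a median of -0.10.

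In blood the secondary granule genes were not called at any day. Against day 0, 0 of 8 members and 0% of all genes were called by limma at days 1, 3, 7, 12 and 18, with 589, 1702, 168, 513 and 1693 genes at an unadjusted p under 0.05. At day 1, however, 1 of 3 arrays stood apart: replicate 2 read 9.82 for Camp, 9.10 for Ngp and 7.21 for Ltf, against 8.01 and 7.93, 7.04 and 7.18, and 6.19 and 6.27 on the others. This array was above the next highest of the other blood arrays by 1.53 for Camp and 1.59 for Ngp, and these were the only 2 of 8251 genes with a gap over 1 there, a choice made after the values were seen. Replicate 2 of day 7 also had 2 genes with such a gap, so their number does not set the day 1 array apart. On replicate 2 of day 1, 0 of 14 mature neutrophil genes were the highest of all blood arrays, and 0 of 4 primary granule genes were, where 5.59% of all 8251 genes were highest on it. Of the 15 other secondary and tertiary granule genes 1 was, Itgb2l, and each remaining list had 0 or 1. As a measure of RNA quality, the 3′ probe set of the beta-actin control exceeded the 5′ one by 3.38 (log2) on this array, the highest of the 17 blood arrays, against 2.21 and 2.03 on the other day 1 arrays. The next highest such difference was 3.32 on day 7 replicate 2, where Camp read 8.21 and Ngp 7.31, and the part of RNA quality in these values was not tested. Replicate 3 of day 3, labelled with 2 rounds of amplification, was the highest blood array for 14.1% of all genes. These included 3 members, Mpo (5.66), Elane (6.61) and Ctsg (3.13), all under background.

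With replicate 2 of day 1, day 1 differed from day 0 by 0.76 ± 0.34 for Camp, 0.65 ± 0.42 for Ngp and 0.44 ± 0.21 for Ltf (adjusted p = 0.586 each, limma). Without it, Camp differed by 0.15, Ngp by -0.01 and Ltf by 0.11. On the other 16 blood arrays, Camp ran from 7.56 to 8.29. At day 18 the blood means of Camp and Ngp, 7.84 and 6.98, differed by 0.02 and -0.14 from day 0, with 2 arrays at day 18. The second probe set of Lcn2 averaged 5.90 in blood at day 0, 5.56 at day 3 and 6.90 at day 7, and was not called at any day.

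The rise of ankle was compared with blood and fluid directly. The change of ankle from day 0 to day 18 exceeded that of blood by 1.50 ± 0.46 for Camp, 0.90 ± 0.29 for Ltf and 1.72 ± 0.57 for Ngp, with adjusted p of 0.101, 0.115 and 0.138 (limma interaction), so 0 of 8 members were called, 3 at an unadjusted p under 0.05, against 1.35% of all genes. At day 7 the same interaction called 0 of 8, 1 at an unadjusted p under 0.05, against 2.28% of all genes. The change of ankle from day 7 to day 18 exceeded that of fluid by 1.61 ± 0.32 for Camp, 1.01 ± 0.23 for Ltf and 1.87 ± 0.39 for Ngp (adjusted p = 0.211, 0.338 and 0.217), a comparison added after the data were seen, in which 0% of all genes were called, with 379 at an unadjusted p under 0.05.

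In the synovial fluid cells no granule gene changed between days by the test. Camp ran from 7.03 to 8.0 over the 13 fluid arrays, Ngp from 6.10 to 7.21 and Ltf from 5.70 to 6.39. Against day 3, 0 of 8 members were called at days 7, 12 and 18 (2.56%, 2.70% and 3.19% of all genes; 0, 0 and 1 members at an unadjusted p under 0.05). The main probe set of Lcn2 read 6.76, 6.78 and 6.95 at day 18 and 6.44, 6.00 and 6.29 at day 3, a difference of 0.59 ± 0.17 (limma, adjusted p = 0.082).

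In the mean of days 3, 7, 12 and 18, fluid cells were below blood leukocytes for 5 of 8 members. This share was close to the 58.8% of all genes called in either direction, so it does not set the members apart. The difference, fluid minus blood, was -0.50 ± 0.08 for Mpo (adjusted p = 9.18e-06), -0.60 ± 0.18 for Ngp (0.0066), -0.52 ± 0.15 for Camp (0.00517), -0.25 ± 0.08 for Elane (0.00658) and -0.22 ± 0.08 for Prtn3 (0.0138; limma). Of these, only Camp had both means above the controls, 7.43 in fluid and 7.95 in blood, a fold of 1.43. Taken by day, a split added after the data were seen, Mpo was called at day 3 (-0.59 ± 0.16, adjusted p = 0.00648), day 7 (-0.45 ± 0.15, adjusted p = 0.0256) and day 12 (-0.60 ± 0.16, adjusted p = 0.00508; limma), and Camp at day 3 (-0.81 ± 0.30, adjusted p = 0.0432). This made 2, 1, 1 and 0 of 8 members at days 3, 7, 12 and 18, against 30.5%, 29.5%, 32.4% and 18.9% of all genes, with 1 member at an unadjusted p under 0.05 at day 18. The means of Mpo lay under background in both tissues.

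Most of the listed mature neutrophil genes went the other way, where 58.8% of all genes were called in either direction. In the same comparison, 11 of 14 mature neutrophil genes were higher in fluid and 1, Ly6g, lower, and 10 of 15 other secondary and tertiary granule genes were higher. Clec4d was higher in fluid by 2.88 and Il1r2, a decoy receptor of interleukin 1, by 1.98. Among 12 regulators, 6 were higher in fluid and 4 lower, and fluid minus blood was -3.22 for Myb, -1.21 for Irf8 and -0.88 for Gfi1, with a list median of 0.29. Of the 6 higher, named after their values were seen, Cebpb differed by 1.58, Cebpd by 1.34 and Cebpa by 0.86.

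Fluid cells were below ankle for Camp and Ngp in the mean of the 4 days, a smaller share of the members than of all genes. Taken by day, both passed the test only at day 18. Over the 4 days, fluid minus ankle was -0.64 ± 0.12 for Camp (adjusted p = 5.19e-05) and -0.41 ± 0.14 for Ngp (adjusted p = 0.0235; limma), 2 of 8 members against 38.1% of all genes. By day, a split added after the data were seen, Camp stood at -0.27, -0.19 and -0.31 at days 3, 7 and 12, with 0 of 8 members called at those days (22.7%, 16.9% and 13.4% of all genes; limma, 0 of 8 at an unadjusted p under 0.05), while Ngp stood at 0.15, 0.25 and -0.42, above 0 at days 3 and 7 without passing the test. At day 18 Camp stood at -1.79 ± 0.24 (adjusted p = 4.46e-06, a fold of 3.46). On that day Ltf stood at -0.98 ± 0.17 (adjusted p = 0.000186) and Ngp at -1.62 ± 0.30 (adjusted p = 0.000304; limma), 3 of 8 against 10.7% of all genes. The second probe set of Lcn2 ran the other way and was higher in fluid by 1.26 ± 0.17 over the 4 days (adjusted p = 3.84e-07; limma).

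Before serum, ankle and blood differed in 1 of 8 members on the main probe sets, against 42.2% of all genes. The second probe set of Lcn2 was also called, at 4.56 in ankle and 5.90 in blood, a difference of -1.34. Both of these means lay under background. Ctsg was higher in ankle by 0.46 ± 0.11 (limma, adjusted p = 0.00077), with means of 3.2 and 2.74 that both lay under background. Camp averaged 7.64 in ankle and 7.82 in blood and differed by -0.18 ± 0.29 (adjusted p = 0.665).

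Genes of like pattern were named by their correlation over the arrays of a tissue with the mean of the standardised members, as a description with no test. Only genes with a group mean above 6.85 in the tissue were searched, which were 3640 in ankle, 3561 in fluid and 3530 in blood. Among these, in ankle (19 arrays), the secondary members were followed most closely by Gss (r = 0.82), Ankfy1, Larp1, Tcf3 and Lcat (r = 0.72), and the primary members by Atf6b (r = 0.88), Cox6b1, Emid1, Rab3a and Aloxe3 (r = 0.82). In blood (17 arrays) Nfic (r = 0.76), Ccnt1, Nsdhl, Fzd4 and Plec (r = 0.67) came first for the secondary members, and Aprt, Ltk, Ptgdr2, Fshr and Prkcz for the primary members. In fluid (13 arrays) these were Krt36, Prkd2, Cilp2, Limk1 and Thyn1, and Tgm2, Cyp2d9, Nfatc2, Grin2c and Cx3cr1. Arrays of a tissue share their preparation, and the primary members lay under background.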

How the data were processed

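The deposited values are intensities on a linear scale, which the authors made by RMA, per the submitters' processing notes. RMA corrects background, quantile normalizes arrays and summarises probes. The sources used here give no version of it. No counts exist, and the number of arrays limits the precision. The deposited intensities were put on the log2 scale here. Of 12488 probe sets, 10833 had 1 symbol in the platform annotation and 396 several. For each of 8251 genes the probe set of highest mean was used.

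The fits used lmFit and eBayes with trend (limma 3.58.1, R 4.3.3), with 1 mean per tissue and day, within a tissue or over the tissues compared. P-values are two-sided and Benjamini-Hochberg adjusted over all 8251 genes, with a threshold of 0.05, and errors are limma's standard errors. A fold is given only where both means exceed the background level of the 34 control probe sets. The procedure was tested on simulated data. The members and the gene lists were chosen with earlier results of these data known. All members are named; of other lists, counts and up to 3 called genes with the smallest p; and the 5 genes of most like pattern. Alternatives covered normalization, low signal, probe sets, array weights, all arrays in 1 fit, the replicate block, covariates and single arrays.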

Additional observations from a re-analysis of the deposited data

How the results depend on the processing

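Of 397 recomputed counts of members called, 365 were labelled the same, 12 weaker and 20 stronger. A count was labelled the same where it and the main count were both 0 or lay close together. A change from 3 to 2 was thus also the same. For ankle day 18 against day 0 (3 called), leaving out 1 array gave 1 to 3 members and 56 to 227 of all genes. For day 18 against day 7 (3), it gave 0 to 3 members and 0 to 7 of all genes, and quantile normalization gave 1 member (Ltf). For day 18 against day 12 (0), array weights gave 3, a fit of all 49 arrays 1 and the replicate block 2. The mean of all probe sets gave 1 at ankle day 7 (Lcn2). Array weights gave 1 member for fluid day 12 against day 3, 3 for fluid day 18, 3 for blood day 3, 3 for blood day 12, 1 for blood day 18 and 3 for the ankle minus blood change at day 18. Fluid day 18 also had 1 with all 49 arrays and 1 with the replicate block. Leaving out 1 array gave 0 to 2 members for blood day 3, where without day 3 replicate 1 Ctsg and Lcn2 passed.

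For fluid minus ankle (2), the mean of probe sets gave 4, array weights 4, all 49 arrays 1, the replicate block 1, the second probe sets, added after the data were seen, 4, and leaving out 1 array 1 to 3. The fits of fluid minus ankle without 1 array called 2945 to 3373 of all genes. Without ankle day 3 replicate 3 or ankle day 18 replicate 3, Ngp was lost. For ankle minus blood at day 0 (1), leaving out the lowest genes gave 0, since Ctsg was then not tested, and the mean of probe sets, array weights and the second probe sets gave 2 each. The cause of the other changes was not tested.

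The replicate numbers do not pair samples by the labels, and deviations of same-numbered arrays correlated at -0.18 to 0.73 in ankle, -0.31 to 0.68 in fluid and -0.45 to 0.82 in blood. Their medians were 0.20, -0.06 and 0.19, against -0.11, -0.06 and -0.13 for arrays of different number. With the replicate block, fluid minus blood went from 5 to 2 members (Mpo and Ctsg), the ankle minus blood change at day 18 from 0 to 2, and ankle day 18 against day 0 stayed at 3. Levels near background limit the primary genes, Ltf and Lcn2.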
